A study of Mus musculus with 14 samples.

Results

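Sarcomere and Z-disc genes were followed through maps of 2 histone marks in mouse heart: 39 genes, taken by symbol, of 17063 genes that the deposited regions list. Every region whose list of nearby genes holds one of the 39 symbols was collected, which gave 120 promoter regions and 170 distal regions in the table for mice on 0% fat, 97 and 106 in the H3K9ac table for 10 and 60% fat, and 154 and 197 in the H3K9Bu table for 10 and 60% fat. The hearts came from male C57Bl/6J mice aged 12 weeks, kept on food holding 0, 10 or 60% fat by energy (10% being the control diet) from 4 days before to 1 week after sham surgery or transverse aortic constriction (TAC), a band on the aorta that makes the left ventricle pump against a raised pressure. Chromatin immunoprecipitation and sequencing (ChIP-seq) was done for acetylated (H3K9ac) and butyrylated (H3K9Bu) lysine 9 of histone H3, with 1 library made from a pool of 3 for each of the 12 combinations of mark, diet and surgery. All mice shared strain, sex, age and the time after surgery, and the nuclei came from heart tissue without a sort for cell type. In such bulk tissue fewer cells of a type and less of the mark per cell cannot be told apart.

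The sarcomere is the contractile unit of heart muscle. Thin filaments of actin, with tropomyosin and the troponins that make contraction depend on calcium, slide along thick filaments of myosin, titin spans the unit as a spring, and the M-band ties the thick filaments together at its centre. Thin filaments are anchored at the Z-disc by alpha-actinin and its partners, which desmin filaments and costameres connect to neighbouring fibrils and to the membrane. Acetylation of lysine 9 marks active promoters and enhancers. Butyrylation of the same residue draws on butyryl-CoA, an intermediate of fatty acid oxidation, the main fuel pathway of the heart.

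The measure used throughout is the average signal over a gene's strongest promoter region, a value per base that does not grow with the length of the region. A ratio between libraries is given on the log2 scale relative to the median of all measured promoters, so that 0 means that a gene moved with the median promoter. The median promoter itself stood higher after TAC in H3K9ac as deposited, by log2 0.25, 0.06 and 0.17 at 0, 10 and 60% fat, and lower in H3K9Bu, by -0.07, -0.99 and -0.38. The deposited regions held 2543841 to 9163220 tags per library. The H3K9Bu library of sham hearts at 10% fat stood apart from the other 3 in its table, with a median promoter signal of 46.7 against 17.2 to 23.7. It enters every H3K9Bu comparison of TAC with sham at 10% fat and of 60% with 10% fat in sham hearts. All 39 genes had a promoter region above the filter on low signal in the 0% fat table and in the H3K9ac table, and 34 had one in the H3K9Bu table for 10 and 60% fat, where Actn2, Myom2, Mypn, Nebl and Xirp2 lay below it.

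The promoters of these genes are described first by their makeup, width and signal. A CpG island lay in the promoter region of 18 of the 39 (46.2%), against 80.7% of all 13670 measured promoters in the 0% fat table. The regions were wide in H3K9ac, with a median length of 3105 bp at 10 and 60% fat against 1703 bp over all promoters, and in the 0% fat table the promoter regions of 1 gene covered a median of 3908 bp against 2092 bp. In the H3K9Bu table the single region used per gene was shorter, with a median of 751.5 bp against 892 bp. The promoter regions of 1 gene there covered more, a median of 2389 bp against 1321 bp. They numbered a median of 3 per gene against 2. In signal the median gene lay at percentile 45.5 of all promoters in the 0% fat table, at percentile 44.1 in the H3K9ac table and at percentile 36.1 in the H3K9Bu table. Bag3, a co-chaperone that clears damaged filamin from the Z-disc, held the strongest of the promoters in H3K9ac, at percentile 99.4, and Nebl, which encodes nebulette of the Z-disc, the weakest, at percentile 6.16. In some genes the strongest region lay away from the gene start. This held for 8 of 39 in the 0% fat table, 6 of 39 in the H3K9ac table and 15 of 34 in the H3K9Bu table. Values at the start are also given for some, but not all, of the genes whose result depends on the region. Of the 39 regions used in the H3K9ac table, 22 list a further gene, and their signal cannot be assigned to 1 of the genes; Tnni3 shares its region with Tnnt1, and Myoz1 shares one with its neighbour Synpo2l.

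Promoter sequence was available from RefSeq (build GRCm38.p6) for 30 of the 39, and the 250 bases before each gene start were searched on both strands for binding motifs of factors known to drive muscle genes. The CArG box, the site of serum response factor, was found in 6 of 30 (20%), namely Actc1, Myl3, Myom1, Ldb3, Fhl2 and Vcl, against 1.11% of 9086 promoters. The MEF2 site was found in 5 of 30 (16.7%), namely Ttn, Mybpc3, Myoz2, Synpo2l and Xirp2, against 1.65%. The core of the TEAD motif, CATTCC, was present in 7 (23.3% against 10.6% of all promoters). A GATA site, written AGATAA, occurred in 3 (10% against 5.41%). The TATA box was searched as TATAAA and occurred in 2 (6.67% against 6.05%). A match is a description of the letters and shows no binding. The last 150 bases before the RefSeq start are shown for 5 genes whose promoter H3K9ac was lower after TAC in the test below, in gene direction, from 5′ to 3′. Capitals mark the CArG box at bases -47 to -38 of Actc1, which codes for the cardiac actin of the thin filament, and the MEF2 site at bases -33 to -24 of Myoz2, which codes for calsarcin-1 of the Z-disc. The other 3, of the thin-filament genes Lmod2 and Tnnt2 and of desmin, hold neither the CArG box nor the MEF2 site in these bases.
Actc1, chr2:114052876-114053025, minus strand: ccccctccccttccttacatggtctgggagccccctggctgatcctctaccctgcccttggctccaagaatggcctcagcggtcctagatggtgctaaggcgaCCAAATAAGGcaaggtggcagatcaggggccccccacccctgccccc
Myoz2, chr3:123034988-123035137, minus strand: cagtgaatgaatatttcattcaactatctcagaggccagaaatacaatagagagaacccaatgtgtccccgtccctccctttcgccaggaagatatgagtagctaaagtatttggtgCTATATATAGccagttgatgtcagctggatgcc
Lmod2, chr6:24597621-24597770, plus strand: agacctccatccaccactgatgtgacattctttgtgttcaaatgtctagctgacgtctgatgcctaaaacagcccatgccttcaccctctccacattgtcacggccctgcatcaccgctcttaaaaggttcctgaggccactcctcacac
Tnnt2, chr1:135836184-135836333, plus strand: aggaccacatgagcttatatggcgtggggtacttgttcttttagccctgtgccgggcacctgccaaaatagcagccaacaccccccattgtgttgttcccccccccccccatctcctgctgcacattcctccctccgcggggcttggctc
Des, chr1:75360142-75360291, plus strand: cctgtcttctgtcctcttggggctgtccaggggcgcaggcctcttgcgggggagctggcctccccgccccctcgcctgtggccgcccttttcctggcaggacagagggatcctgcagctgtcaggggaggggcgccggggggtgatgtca

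The first comparison asks how pressure load changed promoter H3K9ac at each diet. Relative to the median promoter, most sarcomere and Z-disc promoters had less H3K9ac after TAC at every diet: 28, 30 and 30 of 39 lay below 0 at 0, 10 and 60% fat, where 0 is by construction the middle of all promoters. Their median ratio was -0.16, -0.13 and -0.30. Few single promoters passed 1.5-fold: 2 of 39 lower and 0 higher at 0% fat, where 3.42% and 4.61% of all promoters did so, 0 and 0 at 10% fat (0.564% and 0.778%), and 4 and 0 at 60% fat (1.47% and 2.42%). The 4 at 60% fat were Actc1, Tcap, Tnni3 and Nebl. Ratios below 0 at all 3 diets were seen in 21 of 39, against 22.6% of all promoters, and ratios above 0 at all 3 in 3 of 39, against 22.1%.

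Across diets, limma with the 3 TAC-to-sham ratios as repeats found 7 of the 39 lower after TAC and 0 higher at an adjusted p under 0.05 (Benjamini-Hochberg over 13457 promoters), where 2.48% of all promoters were called lower and 1.62% higher. The 7 were Actc1, Tnni3, Tnnt2 and Lmod2 of the thin filament, Tcap and Myoz2 of the Z-disc, and Des. At 0% fat only the regions of Lmod2 and Myoz2 list no further gene, and at 10 and 60% fat only that of Myoz2. The region of Tcap also lists Stard3, Pnmt and Pgap3, and that of Tnnt2 lists Lad1. Signal in such regions cannot be assigned to 1 gene. Over regions that list 1 gene only, 4 of 18 members were called lower, against 206 of 5447 promoters. By role, 4 of 8 thin-filament genes, 0 of 6 of the thick filament, titin and M-band, 2 of 15 at the Z-disc, 1 of 6 around desmin, chaperones and myosin assembly, and 0 of 4 of the costamere and intercalated disc passed. Before adjustment 19 of 39 were lower and 2 higher at p under 0.05, against 11.1% and 10.3% of all promoters. The count moved with the diets and with the scaling. Without the 60% fat pair 0 of 39 were called lower (118 of all 13457 promoters), without the 10% pair 8 (730) and without the 0% pair 13 (661). With a diet left out, the fit took its spread from all promoters together. The fit over 3 diets also weighed the spread of each gene, so the counts are not strictly alike. On the signal as deposited, without centring on the median promoter, 3 were lower (Actc1, Tcap, Tnni3) and 3 higher (Fhl2, Flnc, Synpo2l), where 118 of all promoters were lower and 2424 higher.

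**Figure D1:**
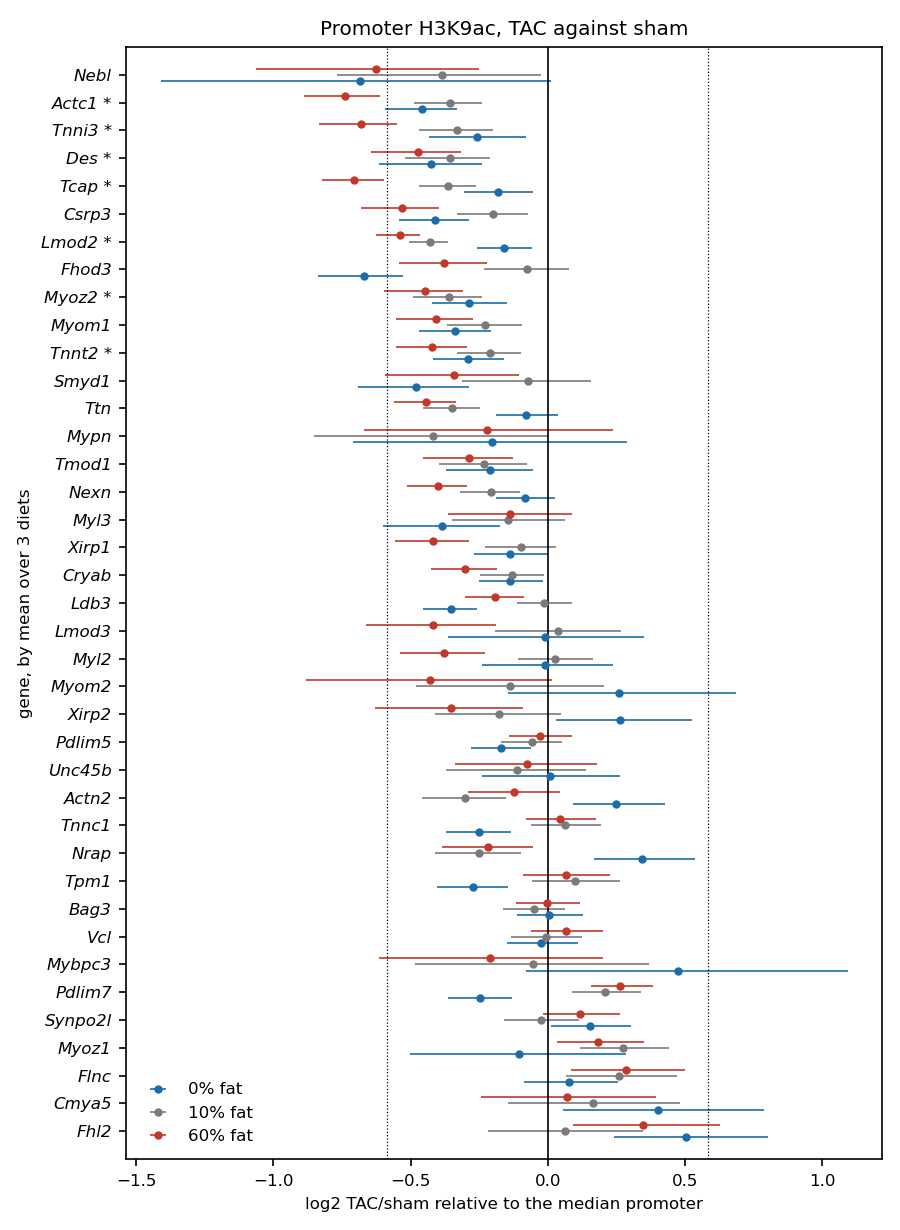
Log2 ratio of H3K9ac after TAC to sham at the promoters of the 39 genes, relative to the median promoter (x axis), with genes on the y axis in the order of their mean. Points are the 3 diets by colour, bars are 95% counting intervals, dotted lines mark 1.5-fold, and an asterisk marks the 7 genes called lower by limma; the lower genes lie left of 0 at all 3 diets.

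Thin-filament genes held the most calls. At Actc1, the signal in sham and TAC hearts was 53.7 and 46.5 at 0% fat, 67.2 and 54.4 at 10% fat, and 59.9 and 39.9 at 60% fat. It was lower after TAC in every pair, and the relative ratios were -0.46, -0.36 and -0.74 (fitted log2 -0.52, limma adjusted p = 0.0120). At Tnni3, cardiac troponin I, which holds back contraction until calcium binds, the signal was 106.1 and 105.8 at 0% fat, 71.3 and 58.97 at 10% fat, and 72.99 and 50.7 at 60% fat. The sham and TAC libraries were level at 0% fat as deposited, where the median promoter stood higher, and TAC was lower at the other diets, with relative ratios of -0.26, -0.33 and -0.68 (fitted -0.42, SE 0.082, limma adjusted p = 0.0120). Tnnt2, the troponin that binds tropomyosin, gave 79.97 and 77.9 at 0% fat, 83.7 and 75.2 at 10% fat, and 71.3 and 59.5 at 60% fat. TAC was the lower library in each pair, and the fitted log2 ratio was -0.31 (SE 0.070, limma adjusted p = 0.0254). Lmod2, leiomodin-2, which lengthens thin filaments, gave 86.3 and 92.2 at 0% fat, 109.5 and 84.4 at 10% fat, and 88.4 and 67.9 at 60% fat. TAC was lower at 10 and 60% fat but higher at 0% fat as deposited, and lower at all 3 relative to the median promoter (fitted -0.38, SE 0.070, limma adjusted p = 0.01003). Lmod2 also had the widest promoter region of the group in the H3K9ac table, a single region of 7415 bp.

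The other thin-filament genes did not pass. Tpm1, the tropomyosin that covers the myosin-binding sites on actin, had a signal of 59.4 and 58.6 at 0% fat, 63.3 and 70.7 at 10% fat, and 63.8 and 75.03 at 60% fat. TAC was level with sham at 0% fat and higher at 10 and 60% fat, and the relative ratios of -0.27, 0.10 and 0.06 differed in sign. Tnnc1, the calcium-binding troponin, likewise had ratios of -0.25, 0.06 and 0.05. Its region is centred upstream, at -2339 bp from the gene start at 0% fat and at -2004 bp at 10 and 60% fat. That region also lists Nisch, so its signal cannot be assigned to Tnnc1 alone. Tmod1, which caps the slow-growing end of the thin filament, had ratios of -0.21, -0.23 and -0.29, all below 0, and Lmod3 of -0.01, 0.04 and -0.42.

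**Figure D2:**
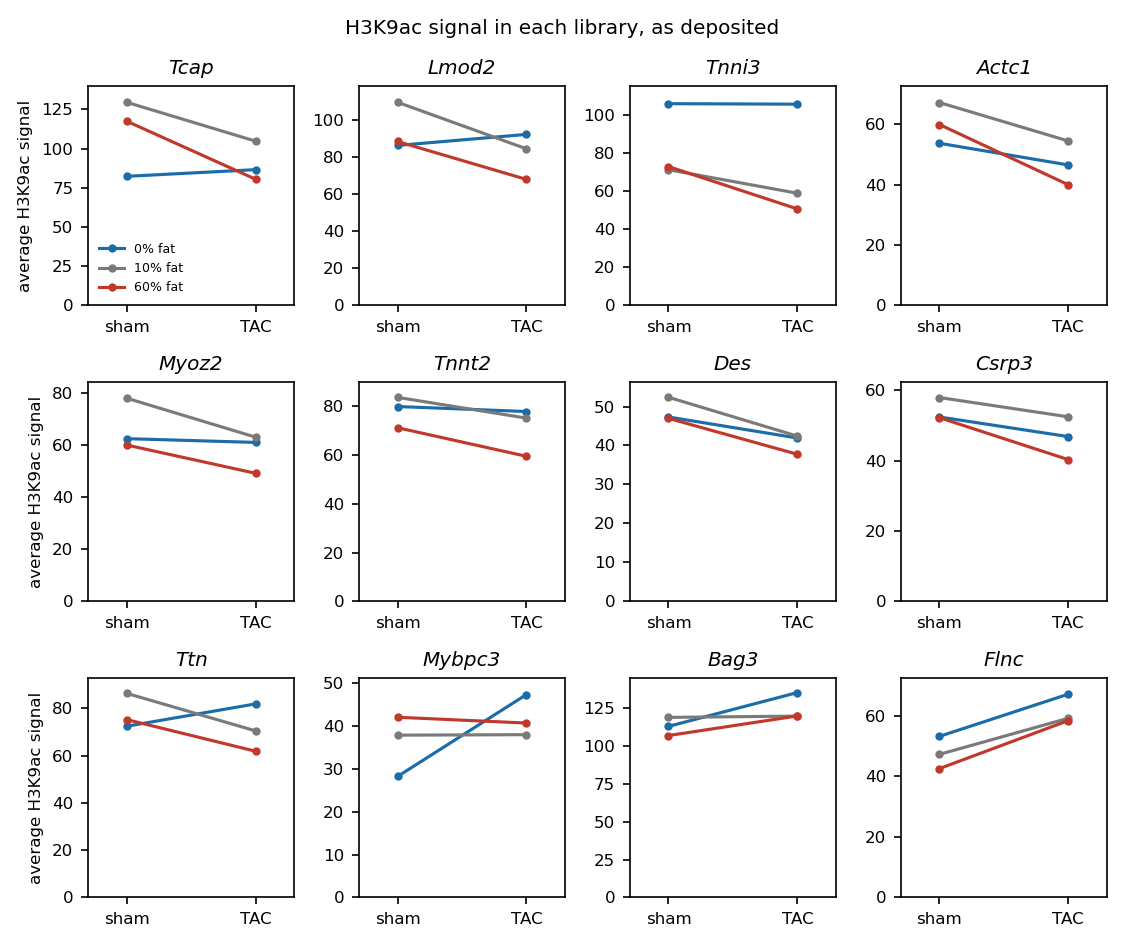
Average H3K9ac signal as deposited (y axis, from 0) in sham and TAC libraries (x axis) for 12 genes, 1 point per library and 1 line per diet. Actc1, Des and Csrp3 are lower after TAC at all 3 diets, Flnc is higher at all 3, and Tcap, Lmod2 and Ttn are lower at 10 and 60% fat only.

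At the Z-disc, Tcap and Myoz2 passed. Tcap encodes telethonin, which joins the ends of titin molecules in the Z-disc, and its signal was 82.4 and 86.6 at 0% fat, 129.6 and 104.8 at 10% fat, and 117.6 and 80.5 at 60% fat. The 60% fat pair showed the widest gap and the 0% pair ran the other way as deposited, and the relative ratios were -0.18, -0.36 and -0.71 (fitted -0.42, SE 0.075, limma adjusted p = 0.00835). Myoz2, a calcineurin-binding protein, gave 62.4 and 60.9 at 0% fat, 77.9 and 62.9 at 10% fat, and 59.9 and 49.1 at 60% fat, lower after TAC in every pair (fitted -0.37, SE 0.081, limma adjusted p = 0.0230). Csrp3, muscle LIM protein, gave 52.4 and 46.8 at 0% fat, 57.9 and 52.5 at 10% fat, and 52.2 and 40.3 at 60% fat. It too was lower in each pair, but its fitted ratio of -0.38 missed the threshold (limma adjusted p = 0.0502). Nebl had the lowest fitted ratio of the group, -0.57, on a weak signal of 24.8 and 18.2 at 0% fat, 28.1 and 22.2 at 10% fat, and 25.1 and 17.9 at 60% fat, and missed the threshold as well (limma adjusted p = 0.0960).

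Other Z-disc genes leaned the other way. Fhl2, a LIM protein that binds titin, had a signal of 30.7 and 52.5 at 0% fat, 35.8 and 39.02 at 10% fat, and 34.6 and 49.9 at 60% fat. TAC was the higher library in each pair, and its fitted ratio of 0.30 was the highest of the group but did not pass (limma adjusted p = 0.173). Flnc, filamin C, an actin crosslinker, gave 53.3 and 67.2 at 0% fat, 47.3 and 59.3 at 10% fat, and 42.6 and 58.5 at 60% fat. It was likewise higher after TAC in each pair, with a fitted 0.21 (limma adjusted p = 0.210). Cmya5, myospryn, gave 40.8 and 64.9 at 0% fat, 36.7 and 42.97 at 10% fat, and 35.7 and 42.1 at 60% fat, with relative ratios of 0.40, 0.16 and 0.07. Its TAC library was the higher of each pair. Actn2, alpha-actinin-2, the crosslinker that defines the Z-disc, gave 44.1 and 62.8 at 0% fat, 61.6 and 51.95 at 10% fat, and 47.3 and 48.7 at 60% fat. Its ratios of 0.25, -0.30 and -0.12 did not share a sign. Myoz1 and Synpo2l completed the upper end, with 37.6 and 41.8 at 0% fat, 39.1 and 49.5 at 10% fat, and 40.6 and 52.1 at 60% fat for Myoz1 and 89.5 and 118.9 at 0% fat, 88.8 and 90.9 at 10% fat, and 79.3 and 96.8 at 60% fat for Synpo2l. Those values came from upstream regions, centred at -7766 and -6235 bp from the gene starts in the 0% fat table and at -5554 and -6044 bp in the H3K9ac table; at the start of Synpo2l, the signal was 34.4 and 26.1 at 0% fat, 35.1 and 33.9 at 10% fat, and 35.4 and 27.3 at 60% fat, which puts TAC below sham in each pair. Pdlim7 had ratios of -0.25, 0.21 and 0.26, and the remaining Z-disc genes Ldb3, Mypn, Nexn and Pdlim5 had ratios of -0.42 to -0.01.

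In the thick filament, titin and M-band group, no gene passed. Ttn, the titin gene, had a signal of 72.5 and 81.9 at 0% fat, 86.4 and 70.5 at 10% fat, and 75.3 and 61.9 at 60% fat. The 10 and 60% fat pairs were lower after TAC and the 0% pair was higher as deposited, and its fitted ratio of -0.29 missed the threshold (limma adjusted p = 0.0517). Myom1, myomesin-1 of the M-band, had ratios of -0.34, -0.23 and -0.41 and missed it too (fitted -0.32, limma adjusted p = 0.0553). Myom2 had a fitted ratio of -0.10 over its strongest region and -0.49 at its start (limma adjusted p = 0.716 and 0.163). Myl2 and Myl3, the regulatory and essential light chains of ventricular myosin, gave 47.8 and 56.8 at 0% fat, 53.03 and 56.3 at 10% fat, and 45.1 and 38.8 at 60% fat for Myl2 and 73.5 and 66.9 at 0% fat, 68.3 and 64.4 at 10% fat, and 54.8 and 55.8 at 60% fat for Myl3. The relative ratios of Myl2 were -0.01, 0.03 and -0.38, the farthest from 0 at 60% fat, and the value at 0% fat came from an upstream region centred at -7040 bp. Mybpc3, cardiac myosin-binding protein C, gave 28.2 and 47.3 at 0% fat, 37.8 and 37.9 at 10% fat, and 42.0 and 40.6 at 60% fat over a short upstream region centred at -2706 bp from its start in the 0% fat table and at -2747 bp in the H3K9ac table. At the start itself the signal was 32.8 and 53.8 at 0% fat, 29.5 and 51.6 at 10% fat, and 30.3 and 39.7 at 60% fat, so that TAC was the higher library in every pair there (fitted 0.46, limma adjusted p = 0.0609), a choice of region made after its values were seen.

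Around desmin, the chaperones and myosin assembly, Des passed. Des encodes the intermediate filament that links Z-discs sideways, and its signal was 47.3 and 41.9 at 0% fat, 52.4 and 42.4 at 10% fat, and 46.96 and 37.7 at 60% fat. TAC was the lower library in each pair by a similar ratio, -0.42, -0.36 and -0.47 (fitted -0.42, SE 0.105, limma adjusted p = 0.0397). Bag3 had 112.9 and 135.2 at 0% fat, 118.8 and 119.7 at 10% fat, and 106.8 and 119.8 at 60% fat, and moved with the median promoter, with ratios of 0.00, -0.05 and 0.00. Cryab, the small heat shock protein alpha-B crystallin that protects desmin, had 61.4 and 66.6 at 0% fat, 65.4 and 62.2 at 10% fat, and 64.4 and 58.4 at 60% fat. Its ratios of -0.14, -0.13 and -0.30 were all below 0, as were those of Smyd1, a muscle methyltransferase needed to build sarcomeres (-0.48, -0.07 and -0.34), and of the formin Fhod3 (-0.67, -0.08 and -0.38). Unc45b had a fitted ratio of -0.06 over an upstream region and -0.41 at its start (limma adjusted p = 0.737 and 0.160).

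At the costamere and intercalated disc, the signs varied. Vcl, vinculin, had a signal of 65.4 and 76.9 at 0% fat, 68.2 and 70.9 at 10% fat, and 63.8 and 75.2 at 60% fat, with relative ratios of -0.02, -0.01 and 0.07. It stayed within log2 0.07 of the median promoter at every diet. Xirp1 and Xirp2, actin-binding proteins of the intercalated disc, gave 67.98 and 73.7 at 0% fat, 65.8 and 63.9 at 10% fat, and 65.3 and 54.7 at 60% fat for Xirp1 and 29.9 and 43.2 at 0% fat, 42.5 and 39.04 at 10% fat, and 31.98 and 27.96 at 60% fat for Xirp2. Xirp1 lay below the median promoter at every diet, whereas Xirp2 lay above it at 0% fat and below it at 60% fat (0.26, -0.18 and -0.35). Nrap, which anchors the last actin filaments at the intercalated disc, had ratios of 0.34, -0.25 and -0.22.

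**Figure D3:**
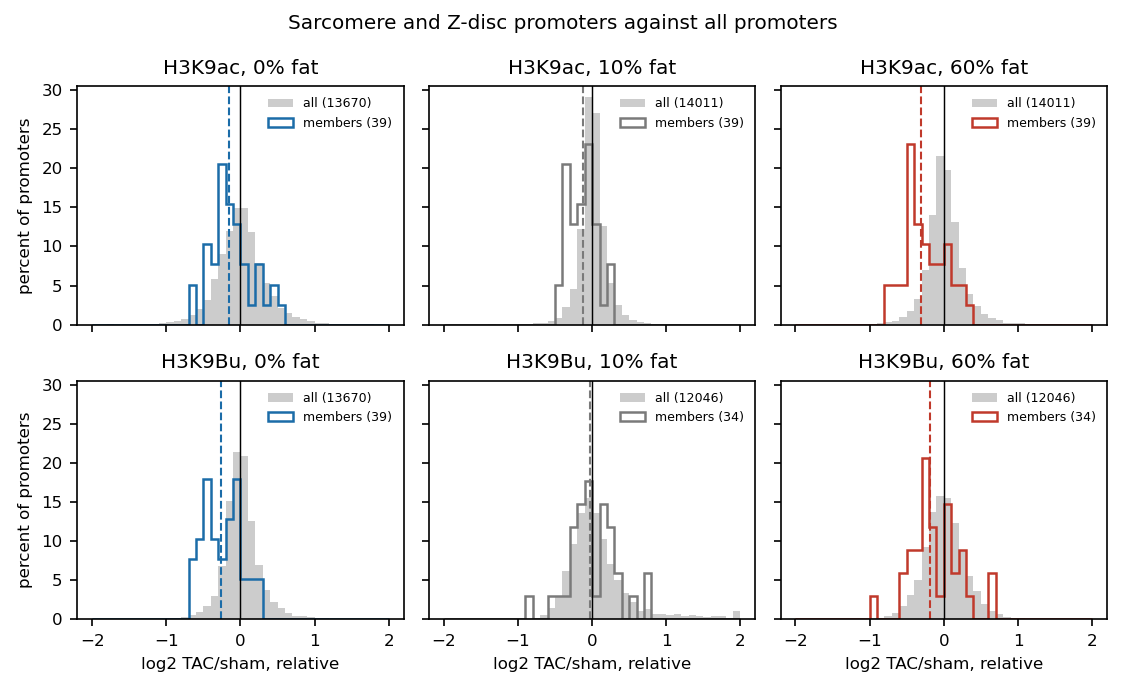
Share of promoters (y axis, percent) by log2 ratio of TAC to sham relative to the median promoter (x axis, values beyond 2 or -2 drawn at the edge), for H3K9ac (upper row) and H3K9Bu (lower row) at each diet. Grey bars are all measured promoters, coloured lines the sarcomere and Z-disc genes, and the dashed line their median, which lies at -0.16, -0.13 and -0.30 in H3K9ac.

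The ratios differed between promoter classes. Promoters were classed by the region used at 0% fat. Averaged over the diets, the 21 members without a CpG island had a median H3K9ac ratio of -0.22, with 19 of the 21 below 0. The 18 with one had -0.05, with 12 of 18 below 0. Over all promoters the medians were 0.01 for 2467 without and 0.00 for 10990 with an island. Of the 7 called genes, Tcap and Des have an island in their promoter region and the other 5 have none. Member ratios at 10 and 60% fat, which share regions but no library, ran together across the 39 genes (Pearson r = 0.79, Spearman rho = 0.77, against r = 0.49 over all 14011 promoters), with the same sign in 35 of 39. The ratios at 0% fat, measured over other regions, gave r = 0.30 against 10% fat and 0.44 against 60% fat, where all promoters gave 0.29 and 0.53. These correlations are across genes, which are not independent replicates.

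Marker lists of other cells were read in the same libraries, and their values differed between diets. In H3K9ac, the 11 measured macrophage and myeloid markers of 16 had a summed signal of 335 in sham and 565 after TAC at 0% fat, with a median relative ratio of 0.74. Sums here are of the signal as deposited. C1qb and C1qc share a region at 0% fat, which enters the sum for each of them. Cd68 held 105.2 of the sham sum, over a region centred at -5182 bp from its start. The 13 measured at the other diets went from 538 to 541 at 10% fat (median -0.05) and from 405 to 552 at 60% fat (median 0.34). The 10 measured fibroblast markers of 12 summed to 294 and 430.1, 328 and 346, and 306 and 384 in sham and TAC at 0, 10 and 60% fat. Cardiomyocyte markers outside the sarcomere, 13 of 14 measured, summed to 709.8 and 726, 752 and 700.3, and 723 and 642, with median ratios of -0.26, -0.06 and -0.28, and 4 of the 13 (Corin, Cox6a2, Fabp3 and Pln) were called lower by limma over the diets. The 12 endothelial markers had median ratios of -0.33, 0.00 and 0.05. Over the diets, limma called 0 of 11 macrophage and myeloid, 0 of 9 fibroblast and 0 of 12 endothelial markers lower or higher. Their median fitted ratios were 0.30, 0.21 and -0.09. No measured marker of any list was at 0. The part of such shifts between cell types in the sarcomere values was not tested.

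The rest of the pathway lay closer to the median promoter. Of 69 other sarcomere, Z-disc and costamere genes, 52 could be tested in H3K9ac over the 3 diets, with a median ratio of -0.04, 5 called lower and 1 higher. Lower were Hspb7, a small heat shock protein of cardiac muscle (fitted -0.41, limma adjusted p = 0.00485), Fbxo32, the muscle ubiquitin ligase atrogin-1 (-0.34, limma adjusted p = 0.0108), Hspb8 (-0.24), Trim54 (-0.39) and Tnnt1 (-0.42), whose region is that of Tnni3. Higher was Actn1, the alpha-actinin of non-muscle cells (fitted 0.39, limma adjusted p = 0.0172). Of 12 transcription regulators of sarcomere genes, 11 were tested and 2 were called lower, Nkx2-5 (fitted -0.55, limma adjusted p = 0.0248) and Hand2 (-0.39, limma adjusted p = 0.0304), both factors of heart development.

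Diet was compared next, 60% against 10% fat, within sham and within TAC hearts. These comparisons use the same libraries as the TAC comparisons at those diets. In H3K9ac the members' median ratio was -0.08 in sham hearts, where 0 of 39 passed 1.5-fold lower and 0 higher (0.542% and 0.314% of all promoters), and -0.15 in TAC hearts, where 1 was lower and 0 higher (0.542% and 0.607%). With the surgeries as the pair of repeats, limma called 4 of 39 lower and 0 higher, where 8 of all 14011 promoters were lower (0.0571%) and 2 higher (0.0143%). Before adjustment 14 of 39 were lower and 1 higher at p under 0.05, against 4.24% and 2.47% of all promoters. Such a fit has 1 residual degree of freedom per gene and borrows its spread from all promoters. The 4 were Myom2, Lmod2, Tcap and Myoz2.

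Myom2, myomesin-2 of the M-band, differed by the most. Its signal in sham hearts was 50.05 at 10% fat and 31.9 at 60% fat, and in TAC hearts 47.3 and 26.4. The 60% fat library was lower in both (fitted -0.72, SE 0.126, limma adjusted p = 0.000795). The region lies within the gene, and over the weaker region at the start, which gave 22.2 and 24.5 in sham and 21.6 and 15.0 in TAC hearts, the fitted ratio was -0.17 and did not pass. Lmod2 (fitted -0.30, limma adjusted p = 0.00315), Tcap (-0.25, limma adjusted p = 0.00425) and Myoz2 (-0.35, limma adjusted p = 0.0259) were lower at 60% fat in both surgeries. As deposited, without centring, 1 passed, where 2 of all 14011 promoters were lower and 1 higher. Over regions at the gene start none of the 4 passed, with fitted ratios of -0.30 for Lmod2, -0.25 for Tcap and -0.35 for Myoz2 that equalled those above to 2 decimals (limma adjusted p = 0.0628, 0.253 and 0.201). Of all 12698 promoters, 0 were called lower and 1 higher in that fit. On the height of the peak none passed either, at -0.67 for Myom2, -0.17 for Lmod2, -0.19 for Tcap and -0.23 for Myoz2. There too 0 of all 14011 promoters were called lower and 1 higher.

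**Figure D4:**
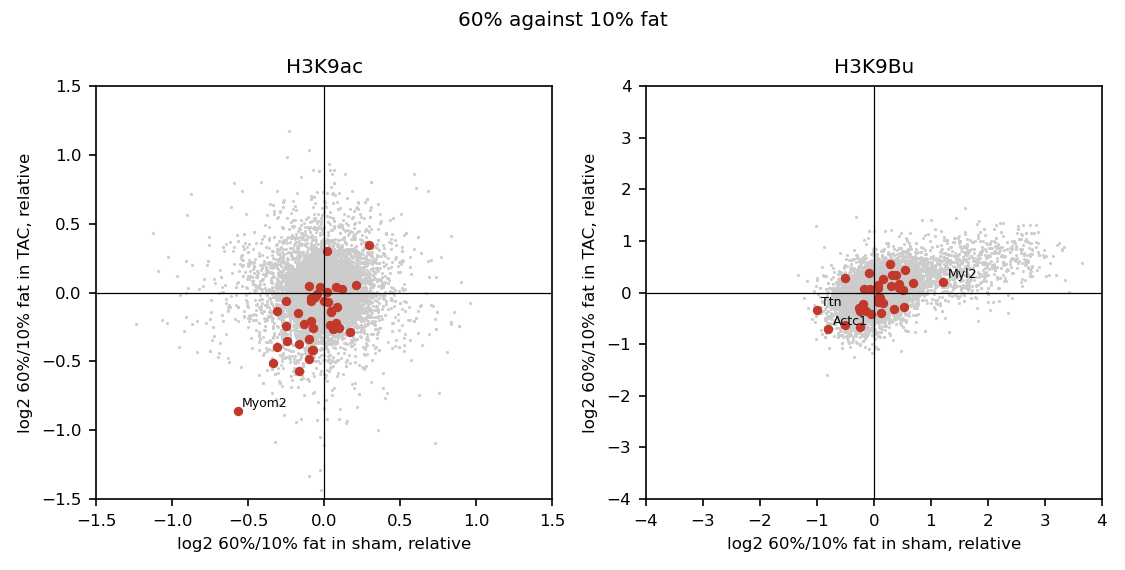
Log2 ratio of 60% to 10% fat relative to the median promoter, in sham (x axis) against TAC hearts (y axis), for H3K9ac (left) and H3K9Bu (right; the axes differ in range). Grey points are all measured promoters and red points the sarcomere and Z-disc genes, with names where a ratio is beyond 0.75; Myom2 lies at the lower left in H3K9ac.

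In H3K9Bu, the TAC comparison gave medians for these genes of -0.26 at 0% fat, -0.03 at 10% fat and -0.19 at 60% fat. All H3K9Bu TAC values at 10% fat, here and below, use the sham library that stood apart. There the median promoter itself differed by log2 -0.99 as deposited, so falls in signal are to be read beside the relative ratios. Of 39 genes, 4 were 1.5-fold lower and 0 higher at 0% fat (1.22% and 2.37% of all promoters). Of 34 genes, 2 were lower and 2 higher at 10% fat (1.02% and 8.66%), and 1 was lower and 2 higher at 60% fat (1.71% and 2.5%). Over the diets, limma called 0 of 34 lower and 0 higher, as it did for all 11877 promoters (0% and 0%). Before adjustment 10 of 34 were lower and 1 higher at p under 0.05, against 4.52% and 6.07% of all promoters. Over regions at the gene start, which 31 genes had, the medians were -0.27, -0.08 and -0.21 at 0, 10 and 60% fat (38 genes at 0% fat), again with 0 called lower and 0 higher, and with 12 lower and 1 higher before adjustment (5.46% and 7.21% of all promoters).

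**Figure D5:**
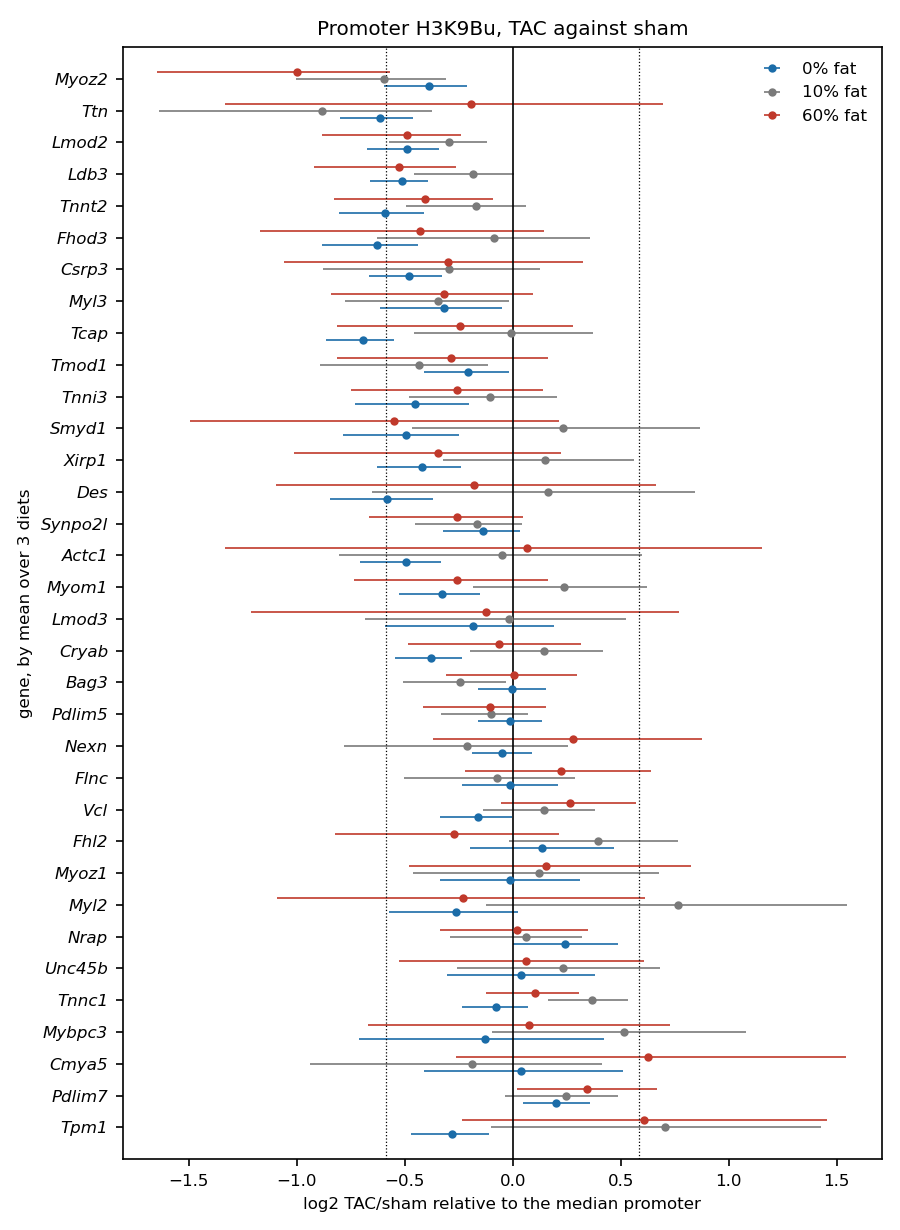
Log2 ratio of H3K9Bu after TAC to sham relative to the median promoter (x axis) at the 34 promoters measured in all diets (y axis, by mean), with diets by colour, 95% counting intervals as bars and 1.5-fold as dotted lines. Myoz2, Ttn and Lmod2 stand lowest and Tpm1 and Pdlim7 highest, and the intervals at 10 and 60% fat are wide.

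Myoz2 had the lowest H3K9Bu ratio averaged over the diets. Its signal in sham and TAC hearts was 37.9 and 27.3 at 0% fat, 57.5 and 18.5 at 10% fat, and 22.6 and 8.1 at 60% fat, and TAC was the lower library in each pair. Relative to the median promoter the ratios were -0.39, -0.60 and -0.998 (fitted -0.66, limma adjusted p = 0.457). Ttn gave 44.96 and 27.7 at 0% fat, 43.9 and 11.2 at 10% fat, and 9.7 and 6.2 at 60% fat, with ratios of -0.61, -0.88 and -0.19 (fitted -0.56, limma adjusted p = 0.457). Lmod2 gave 40.2 and 26.96 at 0% fat, 42.2 and 16.7 at 10% fat, and 17.8 and 9.3 at 60% fat (fitted -0.42, limma adjusted p = 0.457). At 10 and 60% fat the Lmod2 region is centred at 2249 bp, and at its start the ratios were -0.42 and -0.11. All 3 were below the median promoter at each diet, as 14 of the 34 genes were (19.1% of all promoters), and none of them passed the threshold.

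At the other end stood Tpm1, with 34.7 and 27.1 at 0% fat, 29.5 and 24.0 at 10% fat, and 20.2 and 23.9 at 60% fat. Its region at 10 and 60% fat differs from that at 0% fat, and its ratios of -0.28, 0.71 and 0.61 changed sign between them (fitted 0.35, limma adjusted p = 0.530). The region at 10 and 60% fat rests on 24 to 35 tags per library, and at the gene start the signal was 32.7 and 20.5 at 10% fat and 18.9 and 13.3 at 60% fat, with ratios of 0.37 and -0.09 (fitted -0.00082). Pdlim7, a PDZ and LIM protein of the Z-disc, gave 48.5 and 53.3 at 0% fat, 51.7 and 30.4 at 10% fat, and 25.4 and 24.6 at 60% fat (fitted 0.26, limma adjusted p = 0.457). Its ratios were above 0 at each diet. Cmya5 gave 32.6 and 31.9 at 0% fat, 37.0 and 15.8 at 10% fat, and 11.8 and 14.1 at 60% fat (fitted 0.16, limma adjusted p = 0.735). As deposited, without centring, the fitted ratios of all 3 lay below 0.

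Among the genes called in H3K9ac, the H3K9Bu signal at 0% fat was lower after TAC in all 7. Actc1 gave 30.9 and 20.6 at 0% fat, 39.7 and 18.8 at 10% fat, and 10.2 and 8.0 at 60% fat. At 10 and 60% fat that value comes from a short region of 321 bp centred at -4805 bp from the gene start, with ratios of -0.05 and 0.07. At the start of Actc1 the signal was 37.5 and 13.5 at 10% fat and 11.3 and 5.4 at 60% fat, with ratios of -0.40 and -0.56 (fitted -0.49 against -0.16 over the strongest regions, limma adjusted p = 0.317 at the start). Tnni3 gave 59.2 and 41.0 at 0% fat, 49.8 and 22.7 at 10% fat, and 24.7 and 15.5 at 60% fat. Tnnt2 gave 45.6 and 28.5 at 0% fat, 35.96 and 15.5 at 10% fat, and 17.7 and 9.8 at 60% fat. Both were below the median promoter at each diet, at -0.45, -0.11 and -0.26 and -0.59, -0.17 and -0.40. Tcap gave 71.3 and 41.7 at 0% fat, 53.0 and 26.0 at 10% fat, and 26.1 and 16.6 at 60% fat, with the lowest ratio of all members at 0% fat, -0.69 (95% counting interval -0.86 to -0.55), while its region at 10 and 60% fat is another one, centred at -3918 bp, with ratios of -0.01 and -0.24. At the start of Tcap the signal was 56.6 and 19.8 at 10% fat and 20.1 and 13.05 at 60% fat, with ratios of -0.46 and -0.21 (fitted -0.45, limma adjusted p = 0.214). Des gave 36.5 and 22.8 at 0% fat, 36.5 and 20.1 at 10% fat, and 23.4 and 15.5 at 60% fat. Its ratio was -0.58 at 0% fat, and at 10 and 60% fat it was 0.16 and -0.18 over a short region centred at 918 bp, which held 20 to 46 tags per library and whose counting intervals span 0. At the start of Des the signal was 40.04 and 16.6 at 10% fat and 21.1 and 10.1 at 60% fat, with ratios of -0.21 and -0.61 (fitted -0.47 against -0.20, limma adjusted p = 0.292 at the start). Over regions at the start, Actc1, Tcap and Des were thus below the median promoter at each diet.

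Of the remaining core genes, Csrp3 and Myl3 lay below the median promoter in H3K9Bu at each diet over the strongest regions. Csrp3 gave 35.1 and 23.7 at 0% fat, 34.3 and 13.5 at 10% fat, and 13.8 and 8.2 at 60% fat, with ratios of -0.48, -0.29 and -0.30. Myl2 gave 38.3 and 30.2 at 0% fat, 21.9 and 18.6 at 10% fat, and 24.4 and 15.7 at 60% fat. Its ratios of -0.26, 0.77 and -0.23 include 1 of the 2 that were 1.5-fold higher at 10% fat, from an upstream region centred at -1929 bp with 24 and 29 tags. Myl3 gave 46.6 and 35.4 at 0% fat, 46.9 and 17.97 at 10% fat, and 23.2 and 13.8 at 60% fat, with ratios of -0.32, -0.35 and -0.32, close to each other across diets, but at its start those at 10 and 60% fat were 0.06 and -0.01. Mybpc3 gave 40.3 and 35.0 at 0% fat, 37.8 and 26.9 at 10% fat, and 25.4 and 20.3 at 60% fat. Cryab gave 42.9 and 31.3 at 0% fat, 40.7 and 22.2 at 10% fat, and 20.6 and 14.9 at 60% fat. Those of Mybpc3 and Cryab did not share a sign over the diets. Bag3 gave 72.05 and 68.5 at 0% fat, 83.7 and 34.9 at 10% fat, and 35.1 and 26.8 at 60% fat and Flnc 36.4 and 34.4 at 0% fat, 55.4 and 25.95 at 10% fat, and 31.7 and 28.3 at 60% fat. Vcl gave 47.5 and 40.3 at 0% fat, 51.02 and 27.9 at 10% fat, and 26.7 and 24.5 at 60% fat and Xirp1 41.7 and 29.4 at 0% fat, 45.7 and 25.1 at 10% fat, and 23.2 and 13.6 at 60% fat. Bag3, Flnc, Vcl and Xirp1 lay on both sides of the median promoter, or on it, depending on diet. Actn2 and Xirp2, measured at 0% fat only, gave 32.4 and 23.0 and 17.2 and 15.8 in sham and TAC hearts.

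The TAC ratios of both marks resembled each other across these genes. Averaged over the diets, the TAC ratios of H3K9ac and H3K9Bu, from separate libraries, had Pearson r = 0.71 and Spearman rho = 0.73 across the 34 genes with both, against r = 0.27 over 11769 promoters, and 27 of 34 had the same sign. The split by CpG island, again classed by the region at 0% fat, held a like form in H3K9Bu. The 17 members without an island had a median of -0.27, with 14 below 0. The 17 with one had 0.05, with 7 below 0. In the H3K9Bu regions used at 10 and 60% fat, which are other regions for some genes, 15 of the 34 held an island.

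For diet, H3K9Bu gave no call. The members' median was 0.08 in sham hearts, where 2 of 34 were 1.5-fold lower and 2 higher (2.57% and 11.6% of all promoters), and -0.02 in TAC hearts, where 3 were lower and 0 higher (2.56% and 4.8%). By limma 0 of 34 were lower and 0 higher (0% and 0% of 12046), and before adjustment 2 were lower and 2 higher at p under 0.05, against 5.71% and 11.4% of all promoters. The sham value at 10% fat comes from the library that stood apart. The largest ratios in sham hearts were those of Ttn, from 43.9 at 10% fat to 9.7 at 60% fat (log2 -1.002, 95% counting interval -1.83 to -0.48), and of Myl2, from 21.9 to 24.4 (1.22, 0.44 to 1.98) where the median promoter differed by log2 -1.07 as deposited.

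The marks were compared with each other at 0% fat, where 1 table holds both. The antibodies differ, so a ratio of H3K9Bu to H3K9ac has meaning only relative to other promoters. The members' median was 0.04 in sham hearts, with 0 of 39 lower and 3 higher by 1.5-fold (2.88% and 9.86% of all promoters), and -0.05 in TAC hearts, with 2 lower and 1 higher (0.475% and 6.14%). By limma over the surgeries, 4 of 39 leaned to acetylation (5.19% of all 13670 promoters) and 3 to butyrylation (13.3%); on the signal as deposited the split was 33 and 1, against 10601 and 227 of all promoters. Toward acetylation were Lmod2 (fitted -0.65, limma adjusted p = 9.02e-06), Tnnt2 (-0.34, limma adjusted p = 0.0240), Ttn (-0.34, limma adjusted p = 0.0351) and Tnni3 (-0.32, limma adjusted p = 0.00966). At Lmod2 the signal was 86.3 in H3K9ac and 40.2 in H3K9Bu in sham hearts, and 92.2 and 27.0 in TAC hearts. Toward butyrylation were Myoz1 (1.28, limma adjusted p = 2.86e-12), Mybpc3 (0.80, limma adjusted p = 0.000159) and Lmod3 (0.52, limma adjusted p = 0.0340, but -0.24 as deposited). For Myoz1 the H3K9Bu signal was above that of H3K9ac, 58.8 against 37.6 in sham and 55.5 against 41.8 in TAC hearts. That region is centred at -7766 bp from the Myoz1 start, lies within Synpo2l and also lists Synpo2l and Sec24c. The region of Mybpc3 is the short upstream one described above and also lists Sfpi1. Signal in both cannot be assigned to 1 gene. At its start Mybpc3 had a fitted ratio of 0.40 and did not pass (limma adjusted p = 0.0782), and Myoz1 had no measured region at its start. Over regions at the gene start 4 of 38 were called toward acetylation and 1 toward butyrylation (577 and 1398 of all 12356 promoters). Over the mean of all promoter regions of a gene, 0 of 39 leaned to acetylation and 8 to butyrylation (999 and 2170 of all 14859 promoters), and there Tnnt2 turned to 0.34 (limma adjusted p = 0.0350) while Lmod2, Ttn and Tnni3 did not pass, at -0.13, -0.15 and -0.03.

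Distal regions, in which the tables count no promoter, had H3K9ac medians below 0 after TAC at each diet, as the promoters did. Their median TAC ratio, relative to all distal regions, was -0.15 over 129 regions of 29 genes at 0% fat, -0.06 over 69 regions of 22 genes at 10% fat and -0.24 over the same 69 at 60% fat. At 0% fat 19 of the 129 were 1.5-fold lower and 11 higher, against 19.3% and 15.2% of all distal regions, at 10% fat 5 and 3 of the 69 (4.43% and 3.64%), and at 60% fat 12 and 1 (10.3% and 7.32%). The share of lower regions among the members thus stood below the background at 0% fat and above it at the other diets. The regions with the lowest ratio at Lmod2, Tnnt2 and Ttn lie within Tnnt2 and Ttn and across the end of Lmod2, in mm10 coordinates. At Lmod2, the region chr6:24604431-24605435 had a signal of 35.2 in sham and 19.1 after TAC at 60% fat, a ratio of -0.92. At Tnnt2, chr1:135843843-135844086 had 22.3 and 12.0, a ratio of -0.91, and at Ttn, chr2:76970529-76971663 had 23.1 and 13.3, a ratio of -0.82. The Tnnt2 region is short, and counting error is not given for these regions, which were picked for their low ratios. The 1 higher region lay upstream of Pdlim7, at 12.1 in sham and 27.0 after TAC, a ratio of 1.03. Averaged by gene, limma over the diets called 0 of 22 lower and 0 higher in H3K9ac (0.0735% and 0% of 4079), with 7 lower and 0 higher at p under 0.05 before adjustment (11.6% and 11.5% of all). In H3K9Bu it called 0 of 24 lower and 0 higher (0.101% and 0.0504% of 3969), with 4 lower and 0 higher before adjustment (10.0% and 8.94% of all). At 10% fat 28 of 98 distal H3K9Bu regions were 1.5-fold lower and 2 higher after TAC, against 19.4% and 27.5% of all distal regions, in the comparison that uses the library standing apart. At 0% fat the counts were 17 and 7 of 129 (7.62% and 10.5%) and at 60% fat 10 and 2 of 98 (4.89% and 7.27%). Lower distal regions outnumbered higher ones in H3K9Bu at each diet, the reverse of the order among all distal regions. For diet, 60% against 10% fat, distal H3K9ac regions were 1.5-fold lower in 2 and higher in 1 of 69 in sham hearts (3.15% and 4.78%) and in 10 and 2 in TAC hearts (4.49% and 3.58%). Distal H3K9Bu regions were lower in 34 and higher in 9 of 98 in sham hearts (26% and 32.7%) and in 12 and 5 in TAC hearts (7.3% and 8.24%). Between the marks at 0% fat, 38 of 129 leaned to acetylation and 37 to butyrylation in sham hearts (25.6% and 22.6%), and 40 and 21 did so in TAC hearts (19.1% and 15.4%).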

How the data were processed

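Mouse heart H3K9ac and H3K9Bu ChIP-seq was deposited by the authors as 3 tables of merged regions, with the average and peak signal (fragment density) of each library per region; 12 libraries had columns, and 2 pooled inputs were not analysed here. The submitters' processing notes name BWA, SICER and the mm10 build; versions, and any scaling of the signal between libraries, are not given in the sources used here. The deposited tag number, the larger of a pair of libraries, equals average signal times region length over 224 for all 483776 values (relative tolerance 0.001). Tags per library were estimated that way and rounded for the counting intervals (Clopper-Pearson, 95%), which cover counting error only.

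Per gene, the strongest promoter region from 7500 bp before to 2500 bp after the start was used, if its mean signal reached the 25th percentile of regions. Log2 ratios with a pseudocount of 1 were formed within a table and centred on the median promoter; with 1 library per group, a single comparison has no p-value. limma 3.58.1 (R 4.3.3, trend, two-sided) fitted the ratios of all promoters, with diets or surgeries as the repeats, so its p-values speak of an effect common to them; each ratio already pairs libraries of 1 diet or surgery. The script was tested on simulated data.

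Members, lists and tests were chosen with earlier results of these data known. The text names a fixed core of genes, the 5 lowest and highest members in H3K9ac, the 3 in H3K9Bu, and every member called; other genes named were chosen after their values were seen. Alternatives were no centring, a lowess trend, peak signal, a pseudocount of 5, no filter, all promoter regions, regions listing 1 gene, each diet left out and, chosen after seeing the data, the region within 500 bp of the gene start.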

Additional observations from a re-analysis of the deposited data

Results flagged for a closer look

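The promoters of 4 genes had H3K9ac ratios after TAC on opposite sides of the median promoter at different diets, each beyond counting error, and these differences between diets were not tested. Actn2 had a log2 ratio of 0.25 at 0% fat and -0.30 at 10% fat. Nrap had 0.34 at 0% fat, -0.25 at 10% fat and -0.22 at 60% fat, and its strongest region at 0% fat was another one, centred at -7366 bp from the gene start, than at the other diets. Pdlim7 had -0.25 at 0% fat, 0.21 at 10% fat and 0.26 at 60% fat. Xirp2 had 0.26 at 0% fat and -0.35 at 60% fat. In all 4 the value at 0% fat comes from another table, with its own region borders, than the values at 10 and 60% fat.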

How the results depend on the processing

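Results of 1 library per group and fits over 2 or 3 ratios rest on few libraries, and counting intervals were wider for H3K9Bu TAC ratios at 10 and 60% fat (median half-width 0.40 and 0.53) than at 0% fat (0.20). Of the counts and medians that answer a comparison, 160 values under other settings stayed close to the reported one and 24 moved; with each diet left out, 20 stayed and 4 moved. A block on replicate number could not be fitted, since each group has 1 library; the ratios pair libraries within a diet or surgery. The causes of the changes below were not tested.

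Without centring, the members' medians were 0.10 and -0.14 in H3K9ac TAC at 0 and 60% fat, -1.02 in H3K9Bu TAC at 10% fat, -0.98 in H3K9Bu diet in sham, and -0.56 and -0.97 in H3K9Bu against H3K9ac in sham and TAC; on peak signal the sham value was -0.14. Calls in H3K9ac after TAC were 3 lower and 3 higher without centring and 4 lower over regions listing 1 gene, where 18 members were tested. With a diet left out they ranged from 0 (without 60% fat) to 13 (without 0% fat) lower, from 0 to 2 higher, and from 0 to 2 lower in distal regions. For H3K9ac diet, 1 was lower without centring, 0 on peak signal and at gene starts, 2 without the filter and 2 over single-gene regions, and 1 was higher with a pseudocount of 5 and over all promoter regions. On peak signal and at gene starts 0 of all promoters were called lower as well. For H3K9Bu against H3K9ac, higher calls were 1 without centring, 8 over all promoter regions, 1 over single-gene regions and 1 at gene starts, and lower calls 33, 0 and 2 under the first 3.

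Signs turned for Cmya5 in H3K9Bu TAC (-0.32 without centring, -0.076 to 0.33 with a diet left out), Pdlim7 (-0.22 without centring) and Tpm1 (-0.14 without centring, -0.00082 at the gene start) there, Myoz1 in H3K9ac TAC (-0.049 on peak signal, -0.015 over all promoter regions), Synpo2l (-0.036 over all promoter regions, -0.42 at the gene start), and in H3K9Bu against H3K9ac for Lmod3 (-0.24 without centring) and Tnnt2 (0.34 over all promoter regions).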
